A study of Mus musculus with 34 samples.

Results

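Mouse small cell lung cancer tumors treated with bomedemstat (BOM) plus an antibody against PD-1 were compared with vehicle-treated tumors by RNA sequencing. The 9 libraries compared, 4 of BOM plus anti-PD1 (the combination) and 5 of vehicle, were chosen by their treatment labels from the 34 samples of the series. All 9 were flank tumors of the line RP-48OVA-LLO190 in immunocompetent mice, labelled as treated for 16 d, and polyadenylated RNA of whole tumor was sequenced. A further 4 BOM tumors and 5 anti-PD1 tumors of the same line and duration shared the statistical fit, and cultures of the line with BOM for 10 d are used as context. All tumors carry the same line, so whatever was engineered into it is present in the controls too. The strain, sex and age of the mice, the doses and whether each tumor came from a separate mouse are not given in the sources used here, so p-values measure the spread between these samples. The comparison addresses what an LSD1 inhibitor given with immune checkpoint blockade changes in the tumor.

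Small cell lung cancer is a neuroendocrine lung tumor that is often low in MHC class I. LSD1, the product of Kdm1a, is a histone demethylase that acts with the CoREST proteins (Rcor1, Rcor2), histone deacetylases and SNAG-domain factors such as Gfi1 and Insm1 to keep genes silent. In neuroendocrine tumor cells its known targets include genes of the Notch pathway, which opposes the neuroendocrine program. PD-1, encoded by Pdcd1, is an inhibitory receptor of T cells, and its ligand PD-L1 (Cd274) is induced by interferon gamma (IFNg), as are the genes that load peptides on MHC molecules.

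The 4 combination libraries held 7.04 to 8.36 M counts in genes and the vehicle libraries 5.64 to 82.2 M, with vehicle 1 at 82.2 M and vehicle 2 at 13.2 M. Values below are CPM, counts per 1000000 (1 M) counts in genes, with library sizes scaled by TMM. Vehicle tumors 1 and 2 stood apart from vehicle tumors 3 to 5 and lay toward the combination tumors. Of 279 genes raised at least 4-fold by BOM in the 10 d cultures, the mean log2 CPM was 3.56 in vehicle 1 and 3.08 in vehicle 2, 2.26 to 2.68 in vehicle 3 to 5 and 3.32 to 3.56 in the combination tumors. The 63 genes lowered at least 4-fold in culture averaged 3.22 and 3.30 in vehicle 1 and 2, 3.53 to 3.67 in vehicle 3 to 5 and 2.68 to 2.88 in the combination. Among the 3284 genes called below without these libraries, vehicle 1 was within the range of the combination tumors for 55.5% and vehicle 2 for 31.9%. The reason was not tested. Total counts, most list counts and medians, and the main genes are given with and without vehicle 1 and 2. Where a gene has a single value, it is from all tumors unless stated. Of 75 genes examined singly and called with all tumors, all 75 were called in the same direction without vehicle 1 and 2. That fit shares all other libraries. The neuroendocrine factor gene Insm1 was expressed in all 9 libraries, at 584, 555, 496, 555 and 562 CPM in vehicle 1 to 5 and 629, 608, 562 and 567 CPM in combination 1 to 4.

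**Figure D1:**
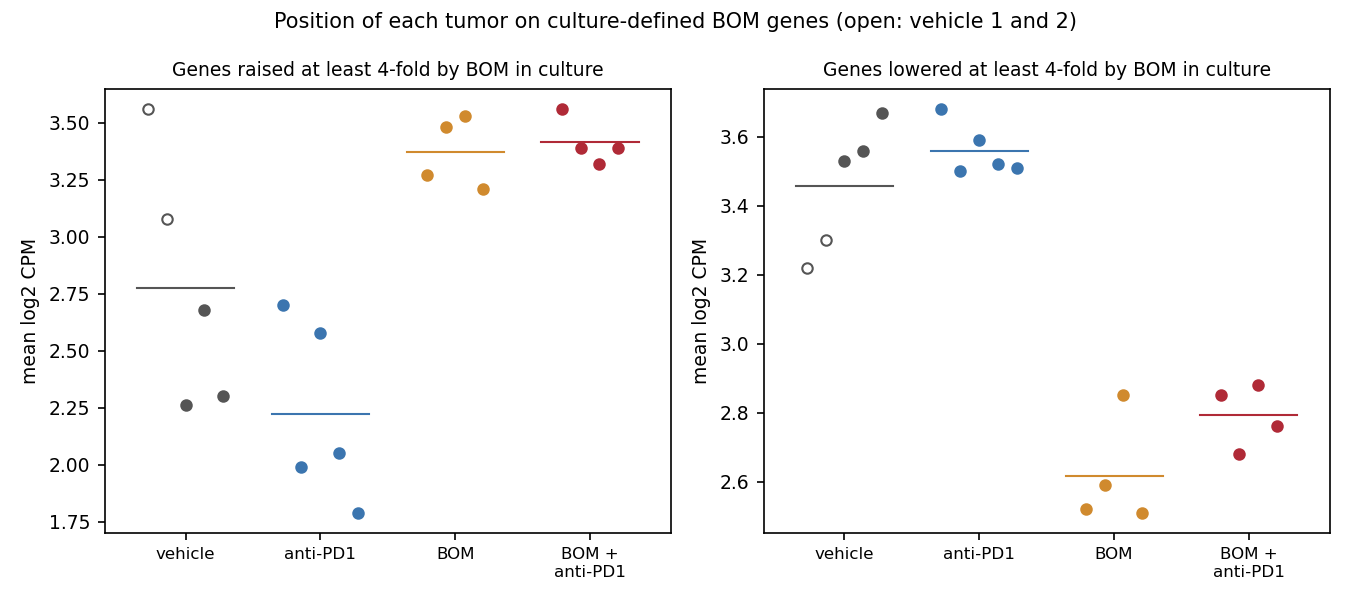
Mean log2 CPM (vertical axis) of the 279 genes raised and the 63 genes lowered at least 4-fold by BOM in culture, for every tumor of the 4 groups; points are tumors, open points vehicle 1 and 2, lines group means. Vehicle 1 (3.56) and vehicle 2 (3.08) sit above vehicle 3 to 5 (2.26 to 2.68) in the left panel and below them in the right panel.

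With all 5 vehicle tumors, 708 genes were higher in the combination (4.94% of 14332 tested) and 831 were lower (5.8%), at an adjusted p under 0.05 by edgeR's quasi-likelihood test. Of these, 132 higher and 189 lower genes differed at least 2-fold. With vehicle 1 and 2 left out, 1781 genes were higher (12.3% of 14450) and 1503 lower (10.4%), with 672 and 332 at least 2-fold. Groups did not overlap for 4.59% of genes with the combination above all vehicle tumors and 5.12% with it below, and for 16.2% and 13.9% against vehicle 3 to 5. Of the genes called with all tumors, 99.8% were called without those libraries as well, and none changed direction. The 2 fits share all other libraries, and vehicle 1 and 2 lay toward the combination, so this share is not independent support. Of the genes called without vehicle 1 and 2, 46.8% were called with all tumors. The counts of called genes moved with the libraries used. A fit of only the 9 libraries called 3 genes higher and 80 lower, but 1647 and 1088 once vehicle 1 and 2 were left out. Leaving out vehicle 1 raised the total from 1539 to 2691, and leaving out vehicle 3, 4 or 5 lowered it to 612, 650 and 607. Without combination 1 the total was 797, and without combination 2 it was 971.

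The deepest falls were in Aldh1a2, Cntn4 and Tph1. Aldh1a2, which makes retinoic acid (mm10 chr9:71215789-71296243), was at 68.3, 114, 273, 261 and 267 CPM in vehicle 1 to 5 and at 6.04, 3.48, 3.34 and 2.40 CPM in combination 1 to 4. The groups did not overlap, and vehicle 1 and 2 were the lowest vehicle tumors. The log2 fold change was -5.67 ± 0.48 (SE, adjusted p = 8.82e-06), and -6.13 ± 0.28 without vehicle 1 and 2. Cntn4, a neuronal adhesion molecule (chr6:105677660-106699310), was at 10.0, 19.3, 39.5, 42.0 and 34.8 CPM in the vehicle tumors and 0.281, 0.360, 2.18 and 0.707 CPM in the combination. It fell by 4.99 on the log2 scale (adjusted p = 4.82e-05). Tph1, the first enzyme of peripheral serotonin synthesis (chr7:46644641-46672537), was at 12.7, 21.4, 59.6, 58.6 and 56.9 CPM against 1.27, 0.961, 4.10 and 0.990 CPM. It fell by 4.47 (adjusted p = 0.000108).

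The other 9 of the 12 largest falls kept the same order of samples, with vehicle 3 to 5 highest, vehicle 1 and 2 between and the combination lowest. Hepacam2 fell by 4.13, Mctp2 by 3.19 and Cntnap5a by 2.79 on the log2 scale. Isl1, a LIM homeobox factor of neurons and endocrine cells, fell by 2.79. Calcr, the calcitonin receptor, was at 86.2, 140, 272, 303 and 247 CPM in the vehicle tumors and 30.5 to 36.5 CPM in the combination, and fell by 2.62 (adjusted p = 5.80e-05). Lingo2 fell by 2.38, Epb41l4a by 2.34, the secreted protease Tll1 by 2.25 and the matricellular protein Ccn3 by 2.20. All 12 falls remained called without each of the 9 libraries in turn and in the fit of only the 9 libraries. In cultured cells BOM lowered Cntn4, Hepacam2, Mctp2, Isl1, Epb41l4a, Tll1 and Lingo2, while the culture values of Aldh1a2 (0.26), Tph1 (-1.25), Calcr (-0.22) and Ccn3 (0.08) did not pass the test and Cntnap5a rose there by 0.99.

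**Figure D2:**
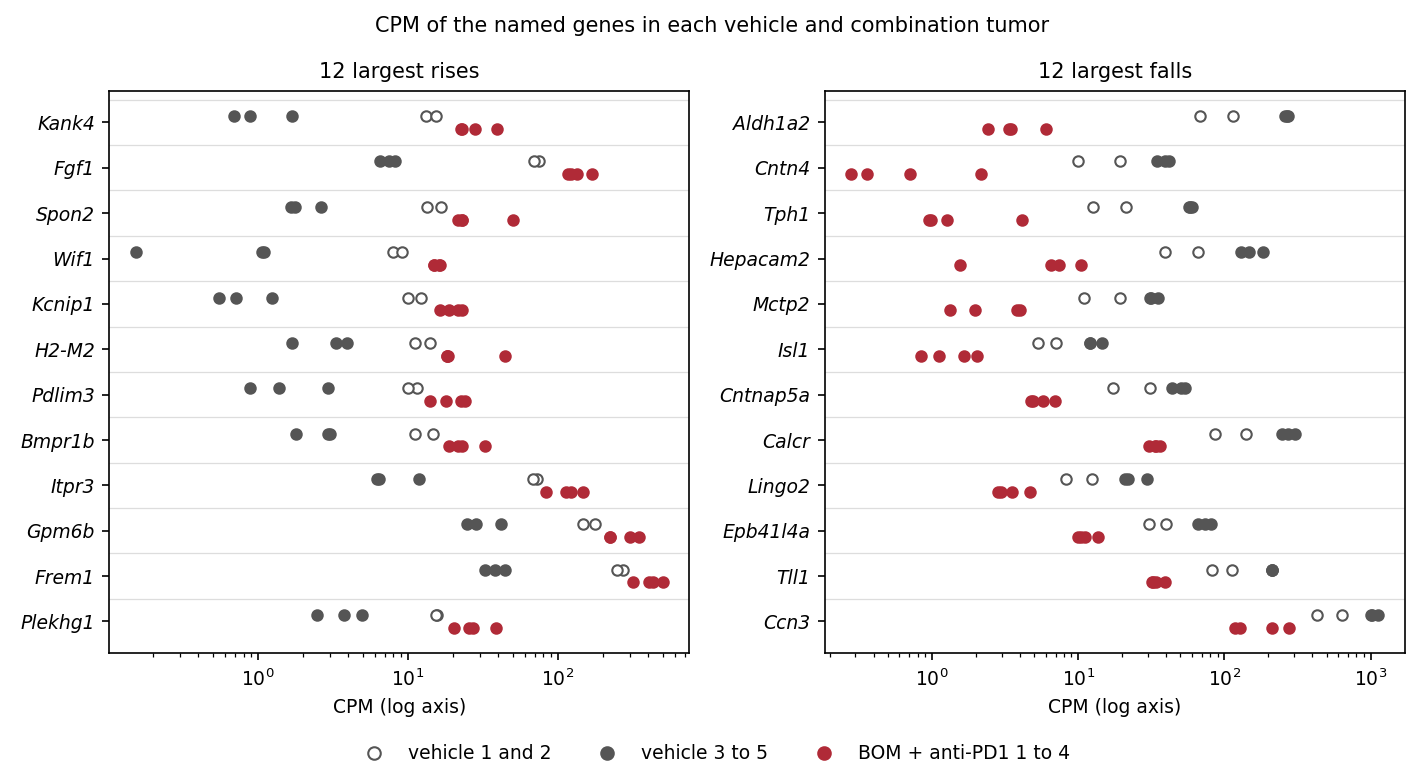
CPM on a log axis of the 12 genes with the largest rises and the 12 with the largest falls, one point per tumor (grey: vehicle, open for vehicle 1 and 2; red: BOM plus anti-PD1). Groups do not overlap by the rule that chose these genes, and vehicle 1 and 2 lie between vehicle 3 to 5 and the combination in every row.

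In all 12 of the largest rises, which include Kank4, Fgf1 and Spon2, vehicle 1 and 2 lay between vehicle 3 to 5 and the combination. Kank4, a regulator of the actin cytoskeleton (chr4:98754898-98817537), was at 13.1, 15.4, 0.885, 1.69 and 0.687 CPM in vehicle 1 to 5 and 39.5, 22.5, 22.8 and 27.8 CPM in combination 1 to 4. Vehicle 1 and 2 sat far above the other 3 vehicle tumors. The log2 fold change was 2.0 ± 0.57 (adjusted p = 0.0325) and rose to 4.68 ± 0.35 (6.97e-08) without them. Fgf1, a fibroblast growth factor, was at 74.7, 68.8, 8.14, 7.51 and 6.46 CPM against 169, 117, 134 and 122 CPM, a rise of 1.92 (adjusted p = 0.0244) and of 4.21 without vehicle 1 and 2. Wif1, a secreted Wnt inhibitor, rose by 1.87, the BMP receptor Bmpr1b by 1.72, the calcium channel Itpr3 by 1.71 and the matrix protein Frem1 by 1.66. Spon2 rose by 1.90, Kcnip1 by 1.86, Pdlim3 by 1.76, Gpm6b by 1.66 and Plekhg1 by 1.64. The 12th, H2-M2, a nonclassical MHC class I gene, was at 14, 11.1, 3.89, 1.69 and 3.30 CPM in the vehicle tumors and 18.6, 44.1, 18.3 and 18.2 CPM in the combination (log2 fold change 1.78 ± 0.48, adjusted p = 0.0257). H2-M2 was at 0 CPM in DMSO cultures and was not tested there, while the other 11 rose in them with BOM.

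None of the 12 rises was called in the fit of only the 9 libraries with all vehicle tumors, and all 12 were called in it without vehicle 1 and 2. With 1 library left out of the fit of all tumors, all 12 stayed called without vehicle 1 or vehicle 2. Without vehicle 3 or vehicle 4, 0 were called, and without vehicle 5, 2 were. Without combination 1, 2, 3 or 4, 2, 5, 8 and 7 were called. With vehicle 1 and 2 left out, the 12 were called whichever further library was dropped. In that comparison some of the largest rises were genes that did not pass with all tumors. Grin2a, a glutamate receptor subunit, was at 10.3, 15.3, 0.354, 2.45 and 0.412 CPM in the vehicle tumors and 14.5 to 27.4 CPM in the combination, with log2 fold changes of 1.79 (adjusted p = 0.0655) and 4.30 (5.08e-06). Agt, angiotensinogen, rose by 1.94 with all tumors (adjusted p = 0.0289) and by 4.04 without vehicle 1 and 2, although vehicle 2 overlapped the combination.

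Of 24 measured genes of MHC class I presentation, 4 rose and none fell with all tumors, where 4.94% of all genes rose. With vehicle 1 and 2 left out 17 of 24 rose, where 12.3% of all genes did. The median log2 fold change was 0.73 and 1.11, against -0.014 and -0.001 over all genes tested, and 23 of 24 members had a value above 0 in each. The 4 were Erap1, which trims peptides in the endoplasmic reticulum, the peptide-loading chaperones Tapbp and Tapbpl, and Psmb10, an immunoproteasome subunit. The promoters of 3 genes are shown because their genes are induced by interferon through elements of known form: capitals mark a GAS-like match (TTCNNNGAA) in the promoter of Irf1 and ISRE-like matches (GAAANNGAAA) in those of Erap1 and B2m. Each runs from 250 bases before to 50 after a start site, on the plus strand of GRCm38.p6 from RefSeq, at chr11:53769764-53770063, chr13:74639603-74639902 and chr2:122147437-122147736.
Irf1: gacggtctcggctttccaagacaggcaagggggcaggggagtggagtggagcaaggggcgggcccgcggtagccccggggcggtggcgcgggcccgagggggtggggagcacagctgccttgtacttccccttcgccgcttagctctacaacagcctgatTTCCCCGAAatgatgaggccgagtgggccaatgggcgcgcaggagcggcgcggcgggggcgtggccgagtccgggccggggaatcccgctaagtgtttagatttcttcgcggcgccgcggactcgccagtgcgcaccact
Erap1: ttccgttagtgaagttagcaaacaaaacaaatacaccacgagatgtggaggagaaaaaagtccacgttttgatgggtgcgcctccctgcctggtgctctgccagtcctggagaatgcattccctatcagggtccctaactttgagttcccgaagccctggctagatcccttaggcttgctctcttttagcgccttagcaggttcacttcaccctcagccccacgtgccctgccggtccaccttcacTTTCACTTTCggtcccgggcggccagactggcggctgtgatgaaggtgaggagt
B2m: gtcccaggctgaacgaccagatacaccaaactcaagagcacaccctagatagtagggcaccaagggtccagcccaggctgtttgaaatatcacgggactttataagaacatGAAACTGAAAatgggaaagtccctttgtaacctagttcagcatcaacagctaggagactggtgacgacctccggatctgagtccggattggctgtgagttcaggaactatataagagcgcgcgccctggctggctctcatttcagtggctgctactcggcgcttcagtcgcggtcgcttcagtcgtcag
Of 102 genes on the antigen presentation, interferon and sensing lists, 72 had a promoter in the table. The GAAANNGAAA motif, searched on both strands, was in 43.1% of these against 3.99% of all 27025 genes with a promoter. TTCNNNGAA, which reads the same on the other strand, was in 25% against 9.55%. Because the lists were chosen for these functions, the difference from all genes describes the lists and not the tumors. Among members called higher that had a promoter, 44.4% held GAAANNGAAA with all tumors (4 of 9) and without vehicle 1 and 2 (16 of 36). For TTCNNNGAA the shares were 33.3% and 25%. A match describes the letters and does not show that a factor binds there.

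Erap1 (chr13:74639568-74693201) was at 56.7, 54.9, 32.0, 30.7 and 25.5 CPM in vehicle 1 to 5 and 104, 58.2, 70.7 and 76.3 CPM in combination 1 to 4. The groups did not overlap, with combination 2 just above vehicle 1. The log2 fold change was 0.92 ± 0.22 (adjusted p = 0.0153). Tapbp was at 111, 94.9, 54.5, 64.7 and 50.4 CPM against 162, 110, 111 and 137 CPM, so that combination 2 overlapped vehicle 1 (0.77 ± 0.24, adjusted p = 0.0492). Tapbpl rose by 0.92 and Psmb10 by 0.87. H2-K1, a classical class I heavy chain (chr17:33996017-34000347), was at 1240, 1700, 904, 1070 and 761 CPM in the vehicle tumors and 2050, 1470, 1410 and 2420 CPM in the combination. Its value of 0.69 ± 0.25 did not pass with all tumors (adjusted p = 0.0779), and it rose by 1.01 ± 0.25 without vehicle 1 and 2 (0.00723). B2m, the class I light chain, had 0.50 with all tumors (adjusted p = 0.128) and 0.68 without vehicle 1 and 2 (0.0394). The peptide transporter Tap1 had 0.87 (adjusted p = 0.125) and 1.32 (0.0193), and H2-Q4 had 1.22 (0.153) and 2.08 (0.0169). Counts of the H2, Gbp and Igtp genes are uncertain, since near-identical copies can share reads, as are those of genes that overlap on opposite strands, since the library kit does not mark strand.

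Class I levels varied among the combination tumors. The summed CPM of the class I list was 9400, 6890, 6640 and 9720 in combination 1 to 4 and 6350, 7590, 5180, 5590 and 4860 in vehicle 1 to 5. With all vehicle tumors, 0 of the 24 class I genes passed without combination 1, 1 without combination 4, and 1 each without vehicle 3, 4 or 5, while 7 and 10 passed without vehicle 1 and vehicle 2. With vehicle 1 and 2 left out, 6 to 18 of 24 passed as 1 further library was dropped, the lowest without vehicle 5. B2m then lost its call without vehicle 3, 4 or 5 or combination 1 or 4.

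**Figure D3:**
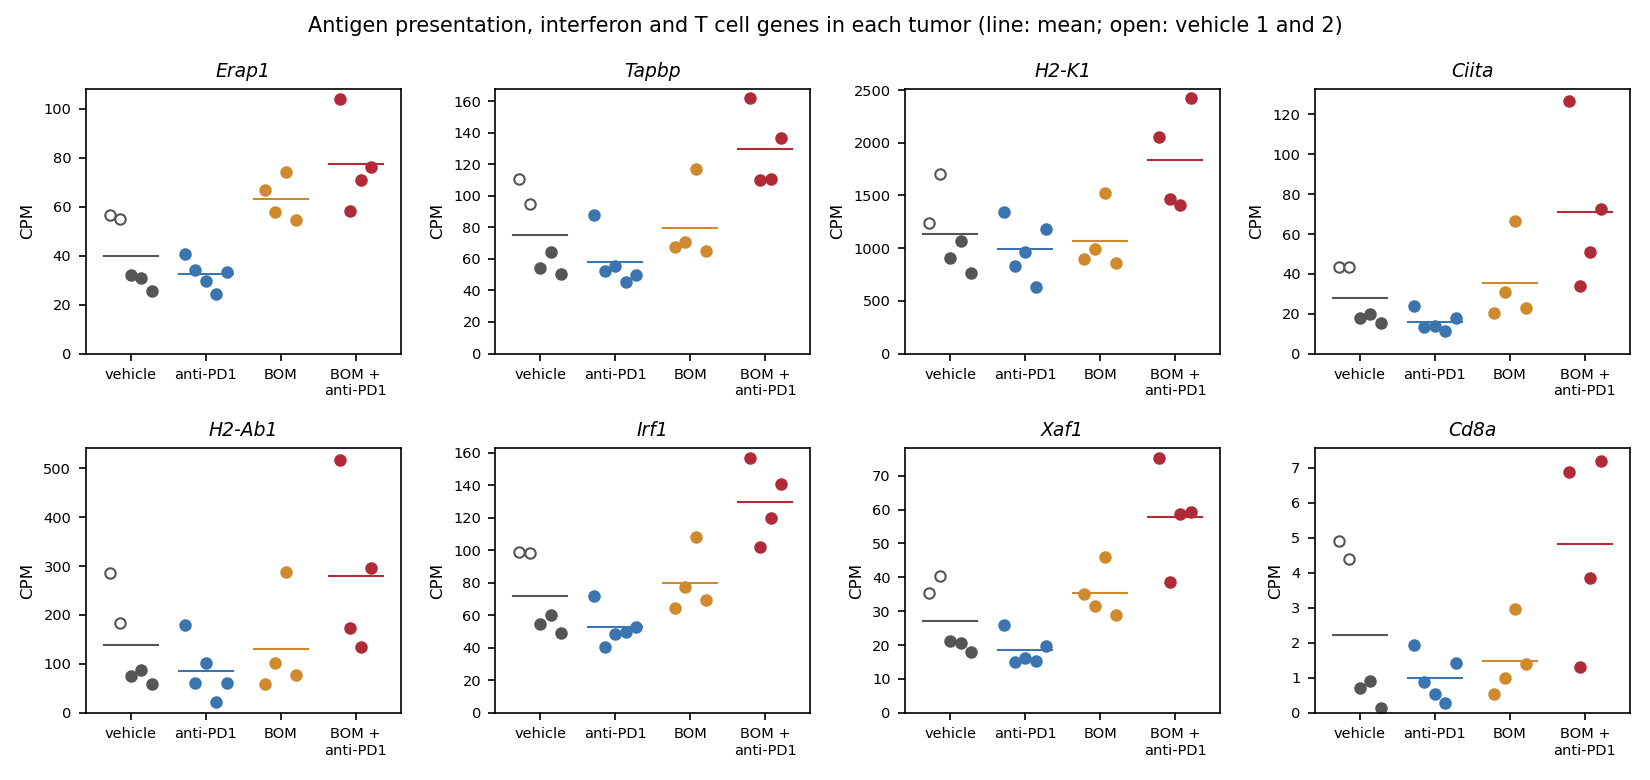
CPM (vertical axes from 0) of 8 genes of antigen presentation, interferon response and CD8 T cells in every tumor of the 4 groups; points are tumors, open points vehicle 1 and 2, lines group means. The combination mean is the highest of the 4 groups in all 8 panels, with a wide spread for H2-Ab1 (135 to 516 CPM) and Cd8a (1.32 to 7.21 CPM).

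Of 7 measured MHC class II genes, Ciita rose with all tumors, where 4.94% of all genes rose. Without vehicle 1 and 2, 6 of the 7 rose, where 12.3% of all genes did. The medians were 0.96 and 1.87. Ciita, the master regulator of class II transcription (chr16:10480059-10528418), was at 43.2, 43.6, 18, 19.9 and 15.5 CPM in the vehicle tumors and 127, 33.9, 50.9 and 72.5 CPM in the combination. Combination 2 lay below vehicle 1 and 2. The log2 fold change was 1.30 ± 0.41 (adjusted p = 0.0478), and 1.99 ± 0.44 without vehicle 1 and 2. H2-Ab1, a class II beta chain, was at 286, 184, 74.8, 86.5 and 58.9 CPM against 516, 174, 135 and 296 CPM. It had 0.99 ± 0.57 with all tumors (adjusted p = 0.296) and rose by 1.93 ± 0.62 without vehicle 1 and 2 (0.0339). H2-Aa, Cd74 and H2-DMb1 had 0.92, 0.96 and 1.15 with all tumors, none called, and rose by 1.76, 1.87 and 2.18 without vehicle 1 and 2. Ciita was not called without combination 1, 3 or 4 or vehicle 3, 4 or 5. With vehicle 1 and 2 left out, the number of class II genes called dropped from 6 to 1 without combination 1 or without vehicle 3, 4 or 5, and to 2 without combination 4.

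All 26 measured genes of the interferon gamma response had a value above 0, with a median log2 fold change of 1.24. Only Irf1 of these passed with all tumors, where 4.94% of all genes rose. Without vehicle 1 and 2, 16 of the 26 rose, where 12.3% of all genes did, and the list median was 2.04. Irf1, a transcription factor induced by IFNg (chr11:53770014-53778374), was at 98.7, 98.2, 54.5, 60.4 and 48.8 CPM in the vehicle tumors and 157, 102, 120 and 141 CPM in the combination. The groups did not overlap, and combination 2 was closest to vehicle 1 and 2. It rose by 0.83 ± 0.22 (adjusted p = 0.0224) and by 1.25 ± 0.19 without vehicle 1 and 2. The guanylate-binding protein gene Gbp6 was at 12.4, 10.3, 4.25, 5.06 and 1.65 CPM against 39.8, 9.49, 18.7 and 17.1 CPM (1.59, adjusted p = 0.0525; 2.55 and 0.00355 without vehicle 1 and 2). The GTPase gene Igtp had 1.57 (adjusted p = 0.0995) with all tumors and rose by 2.72 (0.00768) without vehicle 1 and 2. The chemokines Cxcl9 and Cxcl10 had 1.31 and 1.07 with all tumors and 1.76 and 1.71 without vehicle 1 and 2, none of them called. Ifng itself was at 0.984 CPM or less in all 9 tumors and was too low to test. The summed CPM of the list was 2450 in combination 1 and 641 to 1160 in the other 3 combination tumors, against 1000, 706, 371, 372 and 202 in vehicle 1 to 5. Irf1 lost its call without vehicle 3, 4 or 5 or combination 1. Without vehicle 1 and 2, the 16 called genes became 5 to 19 as 1 further library was dropped, with 5 without vehicle 5, 11 without vehicle 3 and 12 without vehicle 4 or combination 1.

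Of 25 measured genes of the type I interferon response, 4 rose and none fell with all tumors (median 0.49), and 6 rose without vehicle 1 and 2 (0.64). Over all genes 4.94% and 12.3% rose. Xaf1, a pro-apoptotic interferon-induced gene, was at 35.3, 40.3, 21.1, 20.5 and 18 CPM in the vehicle tumors and 75.1, 38.7, 58.8 and 59.2 CPM in the combination. Combination 2 lay just below vehicle 2. It rose by 1.07 ± 0.24 (adjusted p = 0.0119) and kept its call without any 1 of the 9 libraries. Ifi27 rose by 0.85, Ifitm3, which blocks viral entry, by 0.70, and Usp18, which turns interferon signaling down, by 1.54. Of 11 genes of nucleic acid sensing, 4 rose with all tumors and 5 without vehicle 1 and 2, with medians of 0.51 and 0.79. They included Ifih1 (0.68), which encodes the double-stranded RNA sensor MDA5, and its adaptor Mavs (0.51). Tmem173, which encodes STING, rose by 0.75 and the RNA-activated kinase gene Eif2ak2 by 0.48. Without vehicle 3, 4 or 5 or combination 1, the number of sensing genes called was 0 and that of type I genes was 1. With vehicle 1 and 2 left out, 5 sensing genes were called whichever further library was dropped.

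Markers of cytotoxic lymphocytes were low in all tumors. Cd8a, the CD8 co-receptor, was at 4.91, 4.41, 0.708, 0.920 and 0.137 CPM in vehicle 1 to 5 and 6.89, 1.32, 3.85 and 7.21 CPM in combination 1 to 4. Combination 2 and 3 lay below vehicle 1 and 2 and above vehicle 3 to 5. The log2 fold change was 0.95 ± 0.66 (adjusted p = 0.399) with all tumors and 3.02 ± 0.74 (0.00701) without vehicle 1 and 2. With all tumors 0 of 10 measured cytotoxic genes rose, and without vehicle 1 and 2 Cd8a, Cd8b1, Nkg7 and Ccl5 rose, with list medians of 0.76 and 2.05. Beside these counts, 4.94% of all genes rose with all tumors and 12.3% without vehicle 1 and 2. The list summed to 48.1, 27.5, 9.55, 15.5 and 5.49 CPM in vehicle 1 to 5 and 64.0, 18.1, 32.6 and 43.5 CPM in the combination. Nkg7 lost its call without vehicle 3, 4 or 5 or combination 1 or 4, and Ccl5 without vehicle 3 or 5 or combination 1. In whole tumor, more cells of a type and more RNA per cell cannot be told apart.

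Among 13 T cell genes, Cd28 rose only without vehicle 1 and 2 (1.67, adjusted p = 0.025), and the adaptor gene Skap1 fell by 0.81 (0.0119). The list median was 0.48 with all tumors and 1.29 without vehicle 1 and 2, with 12 of 13 members above 0 in each. Over all genes, 4.94% rose and 5.8% fell with all tumors, and 12.3% and 10.4% without vehicle 1 and 2. The calls among the 13 genes are thus near the background. Cd3e, a chain of the T cell receptor complex, had 0.40 with all tumors (adjusted p = 0.752) and 1.40 without vehicle 1 and 2 (0.23). Of 8 checkpoint receptor genes, Tox, a factor of exhausted T cells, fell by 0.77 (adjusted p = 0.00243). Cultured tumor cells also expressed Tox at 67.5 CPM and Skap1 at 4.53 CPM. Pdcd1, the target of the antibody, was at 3.68, 1.60, 0.177, 1.23 and 0.137 CPM in the vehicle tumors and 3.94, 3.36, 2.57 and 2.83 CPM in the combination. It had 0.98 (adjusted p = 0.376) with all tumors and rose by 2.58 ± 0.79 (0.0262) without vehicle 1 and 2, as did Havcr2 (1.85). The ligand gene Cd274 had 0.76 (adjusted p = 0.278) and 1.42 (0.032). Cd4 rose only without vehicle 1 and 2 (1.59, adjusted p = 0.0412). Pdcd1 and Cd28 lost these calls without vehicle 3 or 5 or combination 1, Havcr2 without vehicle 3 or 5, and Cd274 without vehicle 3, 4 or 5 or combination 1. Cd4 kept its call only without combination 2.

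Few genes of other cell types passed the test. For comparison, 4.94% of all genes rose and 5.8% fell with all tumors, and 12.3% and 10.4% without vehicle 1 and 2. None of 21 macrophage and monocyte genes was called with all tumors, and Cd14 rose by 1.49 without vehicle 1 and 2. The list summed to 1870 CPM in vehicle 1 and 1570 CPM in combination 1, against 627 to 734 CPM in vehicle 2 to 5 and 713 to 1020 CPM in the other combination tumors. Among 7 dendritic cell genes Zbtb46 (0.63) and Ly75 (1.02) rose. Cultured tumor cells expressed them at 63.7 and 16.1 CPM. None of 14 fibroblast genes was called, and the median was -0.80 with all tumors and -0.66 without vehicle 1 and 2. Dcn, a collagen-binding proteoglycan, was at 80.7, 20.6, 55.7, 52.3 and 43.4 CPM in the vehicle tumors and 50.3, 8.41, 9.11 and 10.0 CPM in the combination (-1.39, adjusted p = 0.134). Of 12 endothelial genes Vwf fell by 0.48, and 2 of 12 fell without vehicle 1 and 2. Among 12 chemokine and receptor genes Cxcl13 fell by 1.11, from a low level. Cx3cl1, which encodes the chemokine fractalkine and is on no list, rose by 1.63 (adjusted p = 0.0337). It was at 183, 156, 25.5, 18.6 and 37.1 CPM in the vehicle tumors and 207, 322, 288 and 270 CPM in the combination. The calls of Vwf, Cxcl13 and Cx3cl1 were each kept in 3 of the 9 fits that left out 1 library, and lost without vehicle 3, 4 or 5 among others. Skeletal muscle genes summed to 229 and 103 CPM in vehicle 1 and 2 and 255 and 179 CPM in combination 3 and 4, against 11.7 to 36.3 CPM in the other 5 tumors. None of the 14 measured was called, and the median was 0.36 with all tumors and 3.64 without vehicle 1 and 2. Adipocyte genes summed to 855 CPM in vehicle 4 and 278 CPM in combination 1, with medians of -1.50 and -2.0 and 0 of 10 called. The erythroid medians were -1.63 and -0.55, with 0 and 1 of 5 genes called. Natural killer and mast cell lists had no member above the filter. The part these cells play in the results was not tested.

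**Figure D4:**
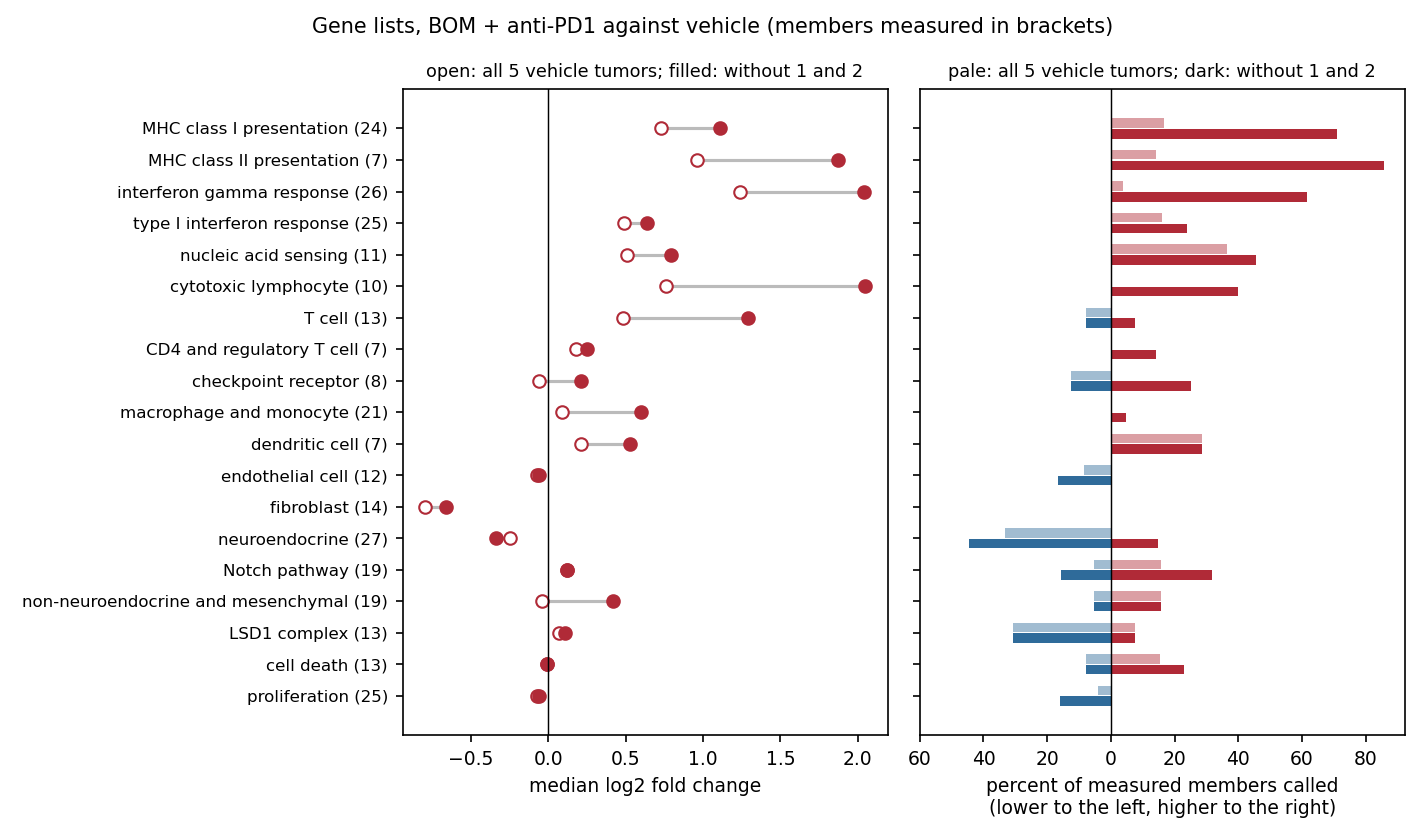
Median log2 fold change of each gene list (left) and the percent of its measured members called lower or higher (right), for BOM plus anti-PD1 against all 5 vehicle tumors (open, pale) and without vehicle 1 and 2 (filled, dark). The medians of the antigen presentation, interferon gamma and cytotoxic lists lie right of 0 and move further right without vehicle 1 and 2.

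Among neuroendocrine genes, several of neuronal and secretory function were lower in the combination. Of 27 measured genes, 9 fell and none rose with all tumors (median -0.25), and 12 fell and 4 rose without vehicle 1 and 2 (-0.34). The shares over all genes were 5.8% lower and 4.94% higher with all tumors, and 10.4% and 12.3% without vehicle 1 and 2. The 4 rises are thus near the background. Insm1, a zinc finger factor of the neuroendocrine program, had 0.10 ± 0.07 (adjusted p = 0.358). Neurod1, a neuronal basic helix-loop-helix factor (chr2:79452521-79456751), was at 5.09, 5.17, 11.1, 13.2 and 10.7 CPM in vehicle 1 to 5 and 3.37, 3.48, 2.18 and 2.54 CPM in combination 1 to 4. The groups did not overlap. It fell by 1.61 on the log2 scale (SE 0.32, adjusted p = 0.00724). Syt1, a calcium sensor of vesicle release, was at 19.3, 30.9, 42.8, 48.8 and 45.5 CPM against 13.2, 11.3, 8.59 and 10.3 CPM and fell by 1.77 (adjusted p = 0.00122). In culture, by contrast, Syt1 rose by 2.34 with BOM.

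Calca, which encodes calcitonin and CGRP, was at 25.3, 32.8, 37.3, 51.2 and 51.6 CPM in the vehicle tumors and 16.0, 15.3, 15.6 and 26.4 CPM in the combination. Combination 4 overlapped vehicle 1. It fell by 1.10 (adjusted p = 0.00486). The neuronal RNA-binding protein genes Elavl4 and Elavl3 fell by 1.51 and 0.73, the vesicle fusion gene Snap25 by 0.85, Scg3, a granin of secretory granules, by 0.72, Foxa2 by 0.53 and Uchl1 by 0.41. Chga and Syp, common stains of these tumors, had -0.24 (adjusted p = 0.486) and -0.52 (0.11), and Syp fell by 0.67 without vehicle 1 and 2 (0.0331). Sez6 and Grp rose without vehicle 1 and 2, by 2.26 and 1.48. From 7 to 11 of the 27 genes were called lower as each of the 9 libraries was left out, and Foxa2 and Scg3 were among those lost without vehicle 3, 4 or 5.

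**Figure D5:**
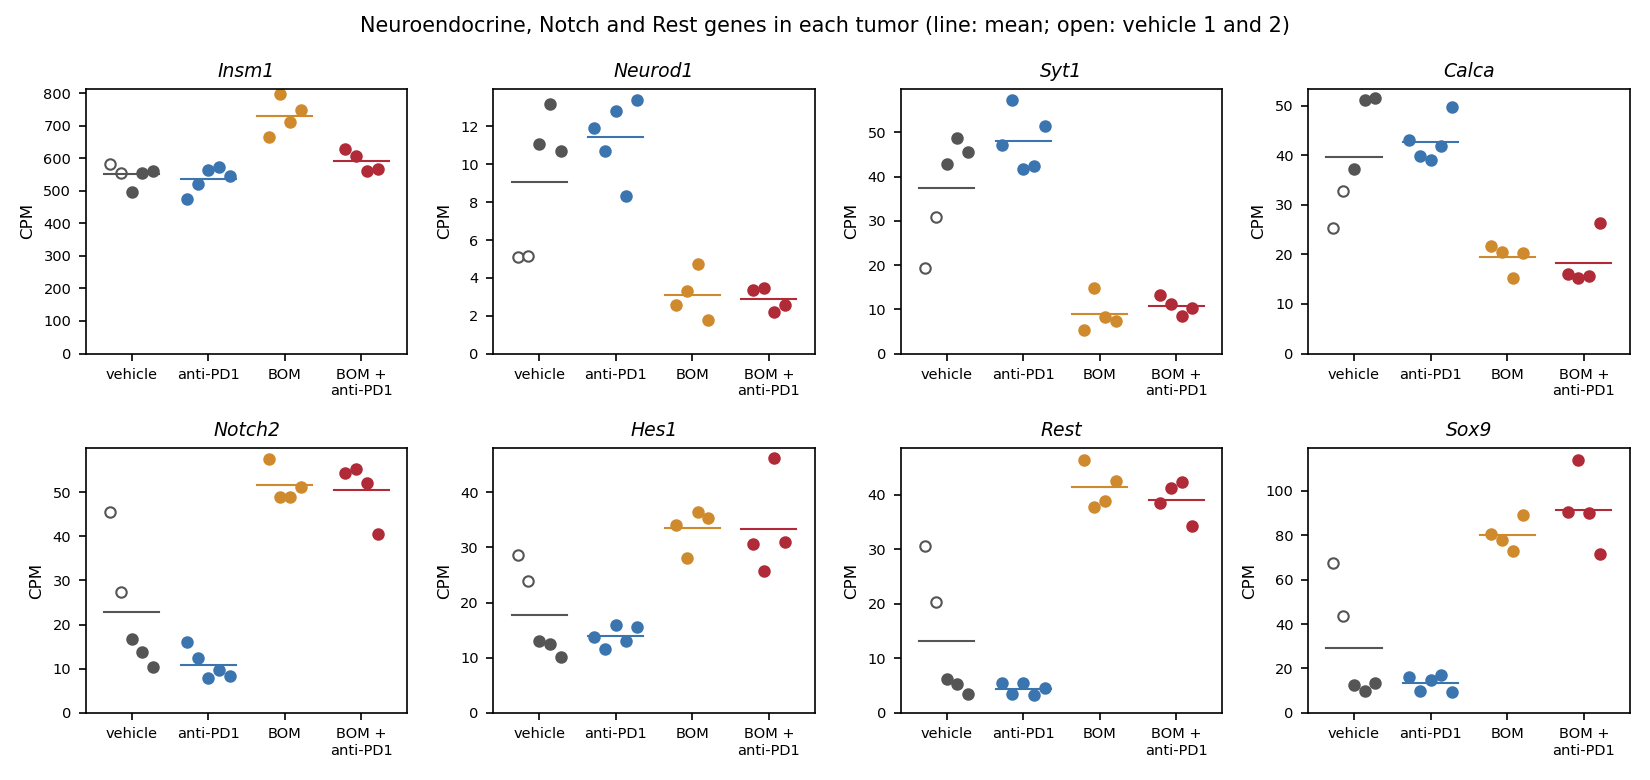
CPM (vertical axes from 0) of 4 neuroendocrine genes (upper row) and of Notch2, Hes1, Rest and Sox9 (lower row) in every tumor of the 4 groups; points are tumors, open points vehicle 1 and 2, lines group means. Insm1 is at 496 to 584 CPM in vehicle and 562 to 629 CPM in combination tumors, Neurod1, Syt1 and Calca are lower in the groups given BOM, and in the lower row vehicle 1 and 2 sit above vehicle 3 to 5.

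Of 19 Notch pathway genes, 3 rose and 1 fell with all tumors, and 6 rose and 3 fell without vehicle 1 and 2. Over all genes 4.94% rose and 5.8% fell with all tumors, and 12.3% and 10.4% without vehicle 1 and 2, so the falls in the list are near the background. The median was 0.12 in both. The receptor gene Notch2 (chr3:98013527-98150361) was at 45.5, 27.3, 16.8, 13.8 and 10.4 CPM in vehicle 1 to 5 and 54.4, 55.2, 52.2 and 40.6 CPM in combination 1 to 4. Combination 4 overlapped vehicle 1. It rose by 1.09 ± 0.30 (adjusted p = 0.0284), and by 1.90 ± 0.20 without vehicle 1 and 2. Notch1 was at 52.5, 32.2, 3.01, 5.21 and 3.57 CPM against 80.8, 69.1, 63.0 and 57.5 CPM. Its groups did not overlap, but its value of 1.65 ± 0.53 did not pass with all tumors (adjusted p = 0.0542). Without vehicle 1 and 2 it rose by 4.09 ± 0.24 (4.19e-09). Hes1, a repressor induced by Notch, was at 28.7, 23.9, 13.1, 12.4 and 10.2 CPM against 30.6, 25.7, 46.2 and 31.0 CPM and rose by 0.87 (adjusted p = 0.0301). The ligand gene Dll4 rose by 0.51 and the glycosyltransferase gene Mfng fell by 0.38. Hes5 and the ligand gene Jag1 had 1.30 and 0.89 with all tumors, not called, and rose by 2.59 and 1.29 without vehicle 1 and 2. The inhibitory ligand gene Dll3, of the neuroendocrine list, had -0.76 (adjusted p = 0.0659) and -0.89 (0.0429). Notch2 lost its call without vehicle 3, 4 or 5 or combination 1 or 2, Hes1 without vehicle 3, 4 or 5 or combination 1 or 3, and Dll4 kept its call without any 1 library.

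Rest, the repressor of neuronal genes in other cells (chr5:77265491-77286432), was at 30.7, 20.4, 6.19, 5.21 and 3.43 CPM in the vehicle tumors and 38.5, 41.2, 42.3 and 34.2 CPM in the combination. The groups did not overlap, and the combination tumors were close together. It rose by 1.46 ± 0.41 (adjusted p = 0.0308) and by 2.99 ± 0.19 without vehicle 1 and 2. Sox9, a progenitor factor, rose by 1.54 and the mesenchymal factor Snai2 by 1.52. Of 19 genes that mark non-neuroendocrine or mesenchymal cells, these 3 rose, Tgfb1 fell by 0.40, and the median was -0.04. The counts were the same, 3 and 1, without vehicle 1 and 2, and the median was 0.42. Across all genes, 4.94% rose and 5.8% fell with all tumors, and 12.3% and 10.4% without vehicle 1 and 2. The list counts without vehicle 1 and 2 are thus near the background. Id2, an inhibitor of basic helix-loop-helix factors, was at 246, 197, 59.3, 39.7 and 46.2 CPM against 323, 333, 389 and 325 CPM and rose by 1.51 (adjusted p = 0.0229). The call of Rest was lost without vehicle 3, 4 or 5 or combination 1, 2 or 3, that of Snai2 without any of these or combination 4, that of Sox9 without vehicle 3 or 5 or combination 2, and that of Id2 without vehicle 3, 4 or 5.

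The drug's target changed little in RNA. Kdm1a (chr4:136550540-136602723) was at 446, 508, 507, 544 and 535 CPM in the vehicle tumors and 400, 458, 359 and 468 CPM in the combination, and fell by 0.27 on the log2 scale (adjusted p = 0.025). Of 13 genes of the LSD1 complex, 4 fell and 1 rose with all tumors, where 5.8% of all genes fell and 4.94% rose. The list counts were the same without vehicle 1 and 2, where 10.4% of all genes fell and 12.3% rose. The list medians were 0.07 and 0.11. Rcor2, the neural CoREST subunit, fell by 0.95 (adjusted p = 0.00486) and kept its call without any 1 library, while Rcor1 had 0.09 (0.454). Hdac1 fell by 0.38 and Hdac2 by 0.22, and Gfi1 rose by 0.49. Of 25 proliferation genes 1, Ccna2, fell by 0.19 with all tumors, a call kept in 1 of the 9 fits that left out 1 library. Without vehicle 1 and 2, 4 fell, Ccna2, Bub1, Mcm2 and Mcm5, which is 4 of 25 where 10.4% of all genes fell. The proliferation median was -0.07 with all tumors and -0.06 without vehicle 1 and 2. Mki67 had 0.14 (adjusted p = 0.522). In the cell death list of 13 genes, Bcl2l11, which encodes the pro-apoptotic protein BIM, rose by 0.76 (adjusted p = 0.0165), Mlkl of necroptosis rose by 0.51 and Bbc3, which encodes PUMA, fell by 0.53. Without vehicle 1 and 2, 3 of the 13 rose and 1 fell, where 12.3% and 10.4% of all genes did. The list median was -0.01 in both. Bcl2l11 was at 45.2, 40.2, 24.8, 28.4 and 20.9 CPM in the vehicle tumors and 56.5, 60.2, 50.2 and 53.4 CPM in the combination, without overlap, and its call held without any 1 library. The calls of Kdm1a and Mlkl were lost without vehicle 3, 4 or 5 or combination 1 or 3, that of Gfi1 without vehicle 3, 4 or 5, and that of Hdac1 without vehicle 4 or 5 or combination 1 or 3. Hdac2 and Bbc3 each kept theirs in 3 of the 9 fits.

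The combination was next set beside each single agent. Against BOM alone, 1 of 14332 genes was called (0.00698%), Sgsm2, at 28.3, 29.7, 30.8 and 33.2 CPM in BOM tumors and 44.0, 48.8, 42.6 and 42.7 CPM in the combination (0.55 ± 0.08, adjusted p = 0.0468). It was not called without vehicle 1 and 2, and 0 genes were called without any 1 of the BOM or combination libraries. At an unadjusted p under 0.05, 1109 genes differed, and DESeq2 called 8 and limma voom 1. Against anti-PD1 alone, 2263 genes were higher (15.8%) and 2374 lower (16.6%), 32.4% in all, and without vehicle 1 and 2 in the fit 2415 (16.7%) and 2182 (15.1%), 31.8% in all. Against vehicle, BOM alone gave 845 higher genes (5.9%) and 1237 lower (8.63%) with all tumors, 14.5% in all. It gave, without vehicle 1 and 2, 1689 higher (11.7%) and 1674 lower (11.6%), 23.3% in all. Anti-PD1 alone gave 0 called genes by edgeR and limma voom, with 86 by DESeq2 and 1411 at an unadjusted p under 0.05. EdgeR also called 0 without vehicle 1 and 2, with 425 at an unadjusted p under 0.05. BOM and the combination gave like values for the largest falls, which share the vehicle tumors. Aldh1a2 had means of 5.50 ± 3.45 CPM with BOM (SD, n = 4), 3.82 ± 1.56 in the combination (n = 4), 255 ± 37.1 with anti-PD1 (n = 5) and 197 ± 98.0 with vehicle (n = 5). Notch2 was at 51.6 ± 4.03, 50.6 ± 6.81, 10.9 ± 3.42 and 22.8 ± 14.2 CPM in the same order, and Rest at 41.3 ± 3.91, 39.1 ± 3.61, 4.45 ± 1.08 and 13.2 ± 11.9 CPM.

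None of the antigen presentation genes was called between the combination and BOM. The median log2 difference between the combination and BOM was 0.61 for MHC class I, 1.01 for class II and 1.20 for the interferon gamma response, against 0.011 over all genes. In the same comparison it was 1.34 for the cytotoxic list, -1.05 for fibroblast, -2.15 for skeletal muscle and -0.84 for adipocyte genes. Against anti-PD1 the medians of the class I, class II and interferon gamma lists were 0.98, 1.75 and 2.04. Of their measured genes, 17 of 24, 7 of 7 and 19 of 26 were called higher than with anti-PD1 and none lower. Over all genes 15.8% were higher and 16.6% lower in that comparison, with a median of -0.008. Irf1 was at 64.5, 77.6, 108 and 69.5 CPM in BOM tumors and 71.9, 40.2, 48.2, 49.6 and 53.1 CPM in anti-PD1 tumors. Combination 2, at 102 CPM, was below BOM 3. The difference from BOM was 0.70 ± 0.23 (adjusted p = 0.543) and that from anti-PD1 was 1.30 ± 0.22 (0.000336). H2-K1 differed by 0.79 ± 0.26 from BOM (adjusted p = 0.557) and by 0.90 ± 0.25 from anti-PD1 (0.00994). Pdcd1 differed by 1.91 from each, with adjusted p of 0.6 and 0.0574. H2-M2 had 2.49 ± 0.55 against BOM (adjusted p = 0.488), at 2.14, 3.80, 7.40 and 4.30 CPM in BOM tumors, all below the combination. The interaction asks whether the combination differs, in either direction, from the sum of the single agents on the log scale. It called 0 genes by edgeR, 0 by limma voom and 6 by DESeq2, with 1258 at an unadjusted p under 0.05 by edgeR. The edgeR count was also 0 without vehicle 1 and 2, with 565 at an unadjusted p under 0.05. For Irf1 it was 1.18 ± 0.31 (adjusted p = 0.394).

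Cultured RP-48OVA-LLO190 cells, which share no samples with the tumors, were measured in a separate table, where BOM raised 12.1% and lowered 8.25% of 15230 genes tested and IFNg raised 1.95%. Of the 708 genes higher in the combination, 689 were tested in the 10 d cultures, and BOM raised 334 (48.5%) and lowered 33 there, against 12.8% raised among all genes tested in tumors and culture. Of the 831 lower genes, 802 were tested and BOM lowered 225 (28.1%), against 9%. For the genes called without vehicle 1 and 2, the shares were 39.1% and 23.9%. IFNg in the last 48 h of culture raised 54 of the 689 (7.84%, against 2.08%). The Notch and Rest genes rose with BOM alone in culture, Notch1 by 3.26, Rest by 2.75, Sox9 by 2.33, Hes1 by 1.73 and Notch2 by 1.39. H2-K1 was at 30.1 CPM in DMSO, 34.1 CPM with BOM and 1137 CPM with IFNg, and Tap1 at 0.725, 1.91 and 410 CPM. H2-Ab1 was at 0 CPM in DMSO and in BOM cultures and at 22.6 CPM with IFNg.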

How the data were processed

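Whole-tumor RNA was sequenced from libraries made with a kit that does not mark strand. Counts per gene were deposited by the authors as raw whole numbers. The submitters' processing notes name bcl2fastq, STAR 2.7, FastQC 0.11.9, featureCounts, Subread 2.0 and mm10. No per-sample column was left unmapped. Of 29745 genes, 14332 passed edgeR's filterByExpr (14450 without vehicle 1 and 2). The 18 tumor libraries of 4 groups were fitted together in R 4.3.3 with edgeR 4.0.16 (TMM scaling, quasi-likelihood F-test, 14 residual degrees of freedom), so the groups share 1 estimate of spread. P-values are 2-sided with Benjamini-Hochberg adjustment over all genes, and an adjusted p under 0.05 is called. Standard errors are the fold change divided by the root of F. CPM uses TMM library sizes. Named genes are the 12 largest rises and 12 largest falls that were called, showed groups without overlap and averaged log2 CPM 2 or more (predicted, immunoglobulin, T cell receptor and mitochondrial genes left out), the 3 members of each list with the lowest p, and a fixed set. Agt and Grin2a are among the largest rises without vehicle 1 and 2. Sgsm2 was named as the sole call of its comparison. Outside this rule, and chosen after their values were seen, are Cd74, Cx3cl1, Dll3, Elavl3, Foxa2, Grp, H2-Aa, H2-Q4, Hdac2, Hes5, Id2, Ifih1, Ifitm3, Igtp, Insm1, Jag1, Mcm2, Mcm5, Mfng, Neurod1, Nkg7, Rcor1, Scg3, Sez6, Snap25, Syp, Tapbp, Tgfb1 and Uchl1. The members and lists were chosen with earlier results of these data known. Coordinates are from GENCODE M21 and promoters from RefSeq. Within the vehicle group and within the combination group, no 2 libraries agreed within sampling noise (lowest chi-square per degree of freedom 5.62). Pairs of libraries across groups were not compared. On simulated data for this comparison with 14332 genes, 85 of 100 genes changed 2-fold and 100 of 100 changed 4-fold were called, with 7 false calls. The changed genes were drawn from those averaging log2 CPM 2 or more. All simulated vehicle tumors had the same expected levels, so vehicle 1 and 2 did not stand apart as in the data. These rates therefore do not apply to genes for which vehicle 1 and 2 lay toward the combination. Alternatives were DESeq2 1.42.0, limma 3.58.1 voom, other scalings and filters, a replicate block, fewer groups and left-out libraries. The fits without vehicle 1, 2 and 4, with vehicle 1 thinned, of 2 groups without vehicle 1 and 2, and with a further library left out after these were added after seeing the data. Some genes of the lists are counted in them but not reported here.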

Additional observations from a re-analysis of the deposited data

Results flagged for a closer look

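Of 312 groups of 4 or 5 values tested for a sample far from the others, 21 held such a sample, where chance gives about 1 in 20. The number flagged is near that share, so any single flag below can arise by chance. Among genes, the highest combination tumor stood apart for Calca (26.4 CPM, combination 4), Dcn (50.3 CPM, combination 1), H2-M2 (44.1 CPM, combination 2), Id2 (389 CPM, combination 3), Rcor2 (69.8 CPM, combination 3), Spon2 (50.5 CPM, combination 3), Tph1 (4.10 CPM, combination 3) and Vwf (153 CPM, combination 3). The lowest tumor stood apart for Mavs (29.1 CPM, combination 2) and Mki67 (432 CPM, vehicle 5).

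Vehicle 1 was the highest vehicle tumor in total counts (82.2 M) and in the summed CPM of the macrophage and monocyte list (1870), the non-neuroendocrine and mesenchymal list (1240), the chemokine list (285) and the erythroid list (135). Vehicle 4 stood apart in the adipocyte list (855 CPM) and the keratinocyte list (17.3 CPM). Combination 1 stood apart in the adipocyte list (278 CPM) and the chemokine list (473 CPM), and combination 3 in the hypoxia and glycolysis list (2920 CPM). Combination 4 had the fewest detected genes of its group, 18327.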

How the results depend on the processing

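None of the 75 printed genes called with all tumors changed direction under the alternatives run. Direction was not compared for the other called genes, except in the fit without vehicle 1 and 2. The balance of calls did turn: 46.0% of called genes were higher with all tumors, 54.2% without vehicle 1 and 2, 52.7% without vehicle 1 and 51% by DESeq2. Without vehicle 1 and 2 the medians of the non-neuroendocrine (-0.04 to 0.42) and checkpoint receptor (-0.06 to 0.21) lists changed sign. So did those of the pericyte and smooth muscle (-0.13 to 0.16), complement (-0.08 to 0.11) and neutrophil (-0.05 to 0.42) lists. For the combination against vehicle (708 higher, 831 lower), leaving out 1 library gave 199 to 1418 higher and 408 to 1273 lower genes. Without vehicle 1 and 2 the counts were 1781 and 1503, and with 1 further library left out 1288 to 1647 and 1042 to 1454. Without vehicle 1, 2 and 4 they were 1479 and 1353. Only the 2 groups gave 3 and 80, or 1647 and 1088 without vehicle 1 and 2. With no filter on low counts 443 were higher. The cause was not tested. For the combination against BOM, 0 genes were called without vehicle 1 and 2, without vehicle 1, 2 and 4, with RLE, either other filter, only the 2 groups or the block, and without any 1 BOM or combination library, while DESeq2 called 8. For the interaction DESeq2 called 6. The replicate block gave 526 higher and 585 lower genes. Same-numbered combination and vehicle tumors correlated at 0.292, -0.079, 0.078 and -0.207. These values do not show whether same-numbered tumors share more than a number. Of 75 printed genes called with all tumors, 61 lost the call with only the 2 groups, 46 without vehicle 3, 45 without vehicle 5, 44 without vehicle 4, 40 without combination 1, 28, 23 and 20 without combination 3, 2 and 4, 19 under the block, 17 with no filter and 15 by limma voom.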
